A study of Mus musculus with 4 samples.

Results

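Liver zonation in STAM at 16 weeks was described in 1 mouse liver section, labelled STAM16w, by comparing the spots at its pericentral and periportal ends. The spots were chosen by measured values. Each of the 2080 kept spots received a score, log2 of (PC + 1) over (PP + 1), where PC is the sum of Glul, Cyp2e1, Cyp1a2 and Oat and PP the sum of Cyp2f2, Hal, Sds and Ass1, both as unique molecular identifiers (UMIs) per 10000 UMIs of the spot. The 520 spots with the highest scores are called the pericentral region and the 520 with the lowest the periportal region. The whole series held 10627 kept spots in 4 sections.

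The series measured fresh-frozen mouse liver sections with Visium, a spatial assay in which barcoded spots on a slide capture the polyadenylated RNA of the tissue lying on them. STAM is described in the labels as a metabolic liver cancer model that mimics metabolic dysfunction-associated steatohepatitis and type I diabetes; the mice of the STAM model generally receive streptozotocin and a high-fat diet. The other model combined DEN (diethylnitrosamine) with CCL4 (carbon tetrachloride) and is described as driven by DNA damage and promoting fibrosis. STAM16w and STAM20w are the sections of the first model, at 16 and 20 weeks, and DEN22w and DEN30w are those of the second model, at 22 and 30 weeks. Whether the week is an age or a time on treatment, and whether each section is another animal, is not in the labels, and no section of untreated liver was analysed here. With 1 section a group there was no replicate, so no test was made; every interval covers counting error only.

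Blood crosses the liver lobule from the portal tracts to the central vein, and hepatocytes along that path carry out different work. Periportal hepatocytes, which meet oxygen-rich and nutrient-rich blood, are known for urea synthesis, amino acid breakdown and glucose production, while pericentral hepatocytes are known for glutamine synthesis, bile acid synthesis and the metabolism of foreign compounds by cytochromes P450. Wnt ligands made by endothelial cells of the central vein maintain the pericentral program through the β-catenin pathway, whose nuclear partners are the TCF/LEF factors.

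The pericentral region held 5557120 UMIs and the periportal region 4880758, with medians of 10442 and 9195.5 UMIs and of 2987.5 and 2730.5 detected genes per spot. Depth was therefore somewhat higher at the pericentral end, and over the 2080 spots the score had a Spearman correlation of 0.117 with the UMI total, from which it is itself computed. Mitochondrial transcripts took 2.1% of the UMIs in the pericentral and 2.0% in the periportal region. Scores in the pericentral region ran from 1.69 to 5.46 with a median of 2.32, and those in the periportal region from -5.03 to -0.390 with a median of -0.895. The 10 spots just inside the pericentral region scored 1.69 to 1.72 and the 10 just outside it 1.66 to 1.69. At the periportal limit the 10 spots just inside scored -0.401 to -0.390 and the 10 just outside -0.390 to -0.375.

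The score genes followed the ranking by construction and are given as a description of the regions. Levels are CPM, UMIs per 1e+06 UMIs of a region, listed from the pericentral region through the upper and lower middle regions, each also of 520 spots, to the periportal region. Glul, glutamine synthetase, was at 1094, 499, 359 and 265 CPM. Oat, ornithine aminotransferase, was at 2541, 1343, 812 and 512 CPM, and Cyp2e1, an ethanol-inducible cytochrome P450, at 3609, 2662, 1755 and 1052 CPM. All 3 pericentral genes were lower in each next region, and neither end lacked them: 85.8% of periportal spots held at least 1 Glul UMI. Cyp2f2, a periportal cytochrome P450, was at 404, 619, 1006 and 1482 CPM. Sds, serine dehydratase, was at 162, 261, 410 and 674 CPM. The 5 defining genes thus lay in the direction of the label, as ranked regions of a gradient and not as pure zones.

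The regions formed patches on the tissue, which the score did not use. Of the contacts that pericentral spots made with adjacent kept spots, 53.1% were with other pericentral spots and 4.41% with periportal spots, where each region holds 25% of the spots. Periportal spots made 52.9% of their contacts with periportal and 4.34% with pericentral spots. The pericentral region fell into 83 connected groups, the largest of 106 spots, and the periportal region into 77, the largest of 37. The median distance from a pericentral spot to the nearest periportal spot was 2 spot steps, with 18.96% of pericentral spots touching one. In both regions most spots, 84.6% and 85%, lay in groups of 5 or more, and the ends of the gradient mostly lay with a spot or more between them.

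**Figure D1:**
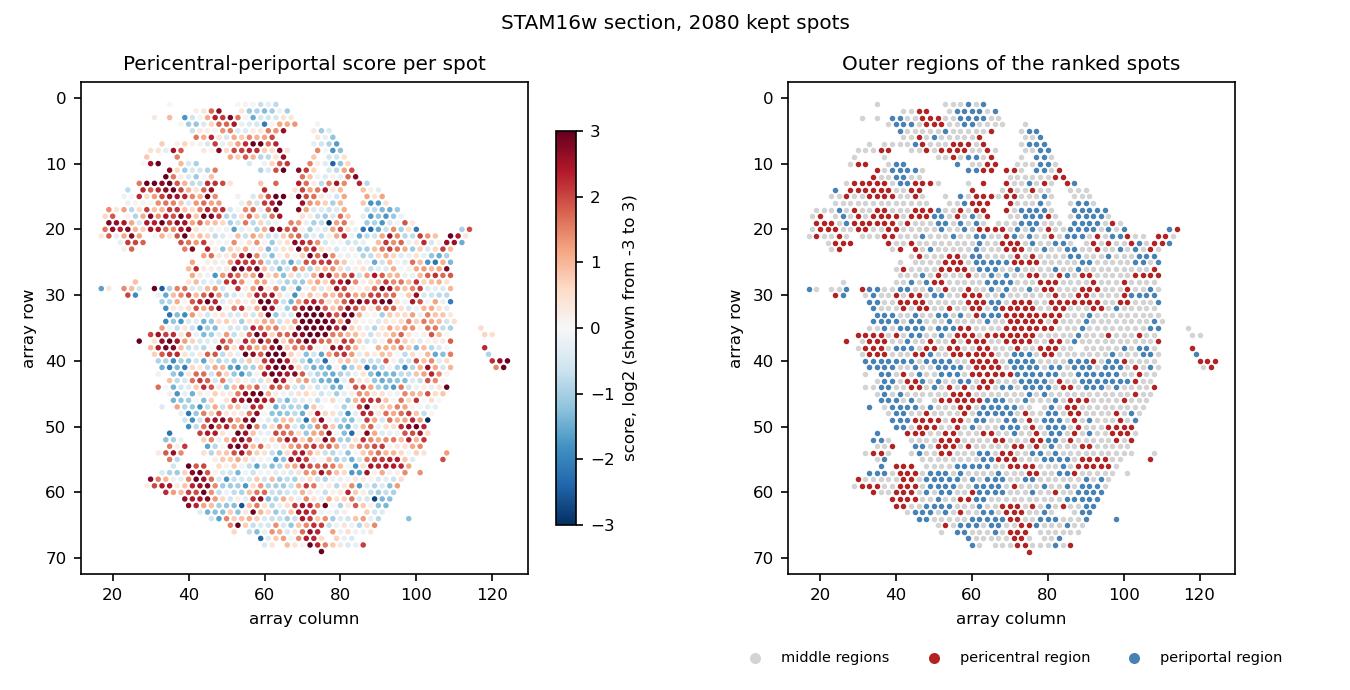
Array positions of the 2080 kept spots of the STAM16w section, coloured by score (left) and by region (right); axes are array column and array row. Pericentral and periportal spots form interleaved patches, the largest pericentral one holding 106 connected spots.

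A ranking that used no count of the spot itself gave regions that overlapped the main ones. When each of 2025 spots was ranked by the summed score genes of its adjacent spots, 69.6% of the resulting pericentral region and 67.2% of the periportal region were also in that region by their own counts. Glul then had a log2 ratio of pericentral over periportal CPM of 1.84, with a 95% binomial interval of 1.76 to 1.93, against 2.05 by the spots' own score. Sds was at -1.67 by the adjacent spots and -2.05 by the spots' own counts. Glul and Sds are score genes, so their values describe the regions only. The own and the adjacent score had a Pearson correlation of 0.781 over the 2025 spots, which share tissue, library and any RNA that spread between neighbouring spots; that spread was not measured.

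Outside the 8 score genes, 5236 genes reached 20 CPM in the higher of the outer regions. A gene is called for a side when its CPM was at least 1.5-fold higher there: 165 genes were called pericentral, a background of 3.15% of the genes tested, and 94 periportal, a background of 1.8%. At 2-fold the counts were 63 and 36. The median log2 ratio over all 5236 genes was 0.04, and 73.0% of genes lay within 0.25 of 0. Levels of 136 of the 165 pericentral genes (82.4%) and 83 of the 94 periportal genes (88.3%) stood in order over the 4 regions, so most called genes were graded. Ranking spots within bins of like depth gave 163 pericentral and 102 periportal genes, 146 and 89 of them among the 165 and 94. Ranking by adjacent spots gave 143 and 86 genes, 114 and 70 of them among the 165 and 94. Below, a range in parentheses after a log2 ratio is its 95% binomial interval, and a single signed value given with a gene is its log2 ratio of pericentral over periportal CPM. The contrast is part of the selection of the spots, so these counts describe the regions and support nothing further.

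The 12 pericentral genes of largest ratio at 50 CPM or more were led by transporters, cytochromes P450 of the Cyp2c family and a long non-coding RNA. Meg3, a maternally expressed imprinted non-coding RNA, was at 77.9, 28.7, 20.3 and 10.7 CPM, a log2 ratio of 2.87 (2.45 to 3.31). Meg3 was also patchy: 43.3% of pericentral spots held a Meg3 UMI, and the 26 spots richest in it held 34.9% of the region's Meg3 UMIs. Slc1a2, a glutamate transporter that feeds the glutamine synthetase reaction, was at 371, 170, 102 and 75.8 CPM, a log2 ratio of 2.29 (2.13 to 2.45). Lhpp, a histidine phosphatase, was at 179, 79.5, 48.2 and 31.6 CPM, a log2 ratio of 2.50 (2.26 to 2.76). Slc13a3, a sodium-coupled dicarboxylate transporter, was at 81.9, 41.3, 21.1 and 18.8 CPM, with a ratio of 2.12. These genes dropped most between the pericentral region and its neighbour: that step held 50.1% of the whole log2 change for Meg3, 49.1% for Slc1a2, 46.8% for Lhpp and 46.6% for Slc13a3. Among the score genes it held 55.4% for Glul but 24.7% for Cyp2e1.

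Members of the Cyp2c family, which hydroxylate drugs and fatty acids, made up 4 of the 12. Cyp2c29 was at 136, 66.7, 46.7 and 25.2 CPM, a log2 ratio of 2.43 (2.15 to 2.72). Cyp2c37 was at 343, 188, 121 and 76.4 CPM (2.16), and Cyp2c67 and Cyp2c50 had log2 ratios of 1.98 and 1.75. The Cyp2c genes lie close together on chromosome 19, and reads shared by near-identical members can be divided unevenly, so single-member values are uncertain. Lect2, a secreted hepatokine, was at 292, 180, 118 and 75.4 CPM, a log2 ratio of 1.95. Rdh9, a retinol dehydrogenase family member, had 1.97, and Gstm2, a glutathione transferase, 1.81. Rgn, regucalcin, which takes part in calcium handling and ascorbate synthesis, fell more evenly, at 728, 527, 363 and 226 CPM with a log2 ratio of 1.69 and 27.6% of the change in the first step.

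The 12 periportal genes of largest ratio were led by a secreted phosphoprotein and an aldehyde dehydrogenase. Spp1, which encodes osteopontin and is also a marker of bile duct epithelium and of some macrophages, was at 29.3, 40.1, 80.3 and 156 CPM, a log2 ratio of -2.41 (-2.66 to -2.16). Spp1 was unevenly spread: 52.3% of periportal spots held an Spp1 UMI, and the 26 richest spots held 37.1% of the region's Spp1 UMIs. Aldh1b1, a mitochondrial aldehyde dehydrogenase, was at 67.3, 97.6, 165 and 297 CPM, a log2 ratio of -2.14 (-2.31 to -1.98). Hsd17b13, an enzyme of the lipid droplet surface, was at 245, 392, 600.0 and 902 CPM, a log2 ratio of -1.88 (-1.97 to -1.80). In contrast to Spp1, Hsd17b13 was present nearly throughout, in 98.3% of periportal spots and 87.1% of pericentral spots, and its richest 26 periportal spots held 11.8% of the UMIs.

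Several of the others act on amino acids. Gls2, liver glutaminase, which releases ammonia from glutamine, was at 189, 272, 411 and 549 CPM, a log2 ratio of -1.54 (-1.64 to -1.44). Gldc, of the glycine cleavage system, was at 78.5, 126, 181 and 230 CPM (-1.55), and Sfxn1, a mitochondrial serine transporter, at 32.2, 46.5, 70.9 and 93.6 CPM (-1.54). Etnppl, ethanolamine-phosphate phospho-lyase, had a log2 ratio of -1.91, and Aspg, an asparaginase, of -1.48. The steroid enzymes Cyp17a1 and Hsd17b6 had log2 ratios of -1.74 and -1.54. Tstd1, a sulfurtransferase family member, had -1.61 and Atp1b1, a sodium pump subunit, -1.40. All 24 named genes lay on the same side in each of 4 areas of the array with the same 2 sets of spots, though sizes varied. The log2 ratio of Slc1a2 ran from 2.14 to 2.51 and that of Hsd17b13 from -1.99 to -1.79, but that of Meg3 ran from 2.04 to 3.74, that of Cyp2c29 from 1.85 to 3.04 and that of Tstd1 from -2.15 to -0.93. The genes were chosen for their ratio in these same spots.

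By the RefSeq annotation of GRCm38.p6, the assembly of mm10, Meg3 spans chr12:109540996-109571729, Lhpp chr7:132610615-132706420 and Slc1a2 chr2:102658239-102790784. On the periportal side Spp1 spans chr5:104435111-104441053, Hsd17b13 chr5:103955442-103977388 and Aldh1b1 chr4:45799022-45804608. Counts are per gene, so they do not separate exons or transcripts.

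**Figure D2:**
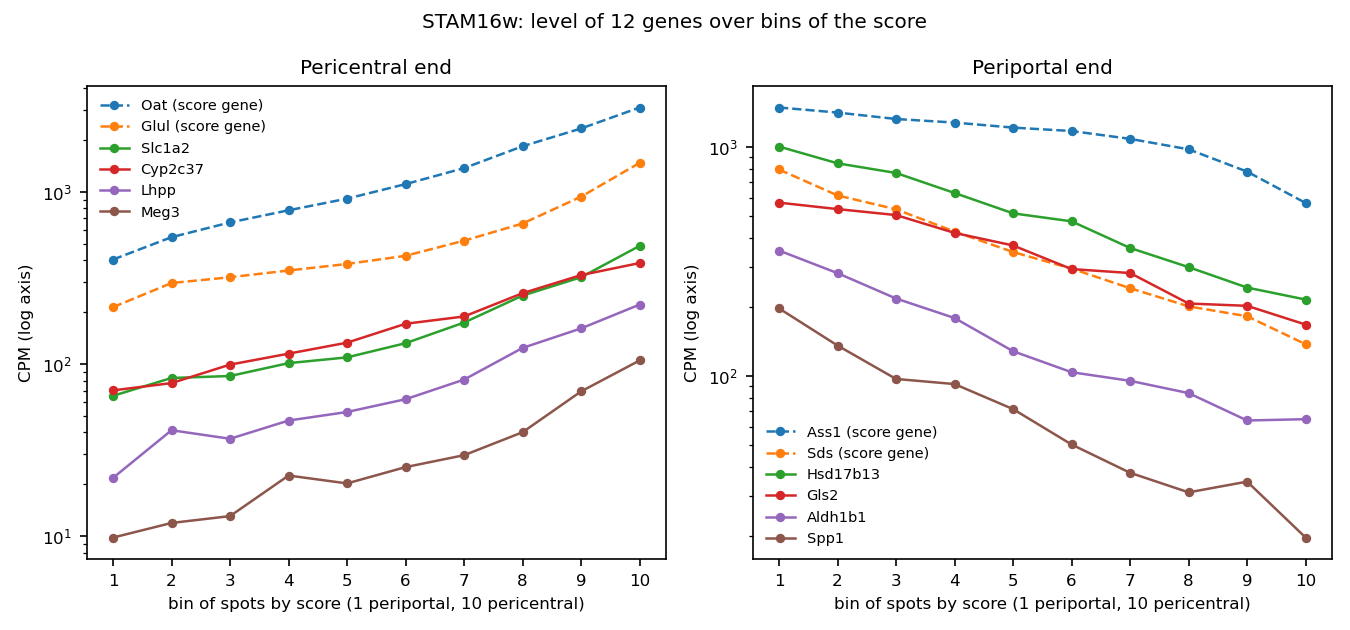
CPM (log axis) of 12 genes over 10 equal bins of the STAM16w spots ranked by score, from 1 (periportal) to 10 (pericentral); dashed lines are score genes, which the ranking used. Glul, Slc1a2 and Meg3 climb over the last bins, and Ass1, lower in each bin than in the one before, has its largest drops in the last 2.

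Promoter sequences were set beside these genes, since TCF/LEF factors and hepatocyte nuclear factors are known regulators of zoned genes. The sequences are RefSeq windows of build GRCm38.p6, 300 bases from 250 before to 50 after a gene's start, printed 5′ to 3′ on the gene's strand. Capitals mark matches on either strand to CTTTGAT (TCF/LEF), CAAAGTC (HNF4), TTAATNATT (HNF1) or AGGTCA (nuclear receptor core site). Shown are 3 of the leading pericentral genes with a TCF/LEF match, Cyp2c29 (chr19:39286835-39287134, plus strand), Slc1a2 (chr2:102706188-102706487, plus strand, a start within the annotated gene) and Lect2 (chr13:56548489-56548788, minus strand), and as a periportal contrast Hsd17b13 (chr5:103977339-103977638, minus strand), which has none.
Cyp2c29: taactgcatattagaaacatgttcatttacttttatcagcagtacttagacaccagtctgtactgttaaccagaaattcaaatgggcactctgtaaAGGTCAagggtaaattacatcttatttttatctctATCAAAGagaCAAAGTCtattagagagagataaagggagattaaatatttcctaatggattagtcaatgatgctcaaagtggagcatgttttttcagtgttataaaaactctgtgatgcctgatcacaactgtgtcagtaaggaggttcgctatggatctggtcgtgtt
Slc1a2: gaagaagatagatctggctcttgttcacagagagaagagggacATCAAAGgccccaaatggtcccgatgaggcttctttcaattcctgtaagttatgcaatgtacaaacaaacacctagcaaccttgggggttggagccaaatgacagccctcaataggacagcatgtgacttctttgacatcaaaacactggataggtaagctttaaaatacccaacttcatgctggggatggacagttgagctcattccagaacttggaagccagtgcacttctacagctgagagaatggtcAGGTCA
Lect2: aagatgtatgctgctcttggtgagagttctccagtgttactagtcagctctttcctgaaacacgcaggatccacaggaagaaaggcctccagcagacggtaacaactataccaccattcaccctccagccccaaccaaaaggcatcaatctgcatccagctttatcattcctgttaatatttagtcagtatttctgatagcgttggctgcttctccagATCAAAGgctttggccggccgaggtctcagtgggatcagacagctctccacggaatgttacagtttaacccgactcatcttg
Hsd17b13: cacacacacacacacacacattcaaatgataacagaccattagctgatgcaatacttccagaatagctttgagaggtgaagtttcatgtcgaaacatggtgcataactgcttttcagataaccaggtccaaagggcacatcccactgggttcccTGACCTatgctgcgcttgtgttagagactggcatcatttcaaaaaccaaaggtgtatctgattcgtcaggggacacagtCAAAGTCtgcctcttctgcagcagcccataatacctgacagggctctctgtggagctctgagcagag

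The Cyp2c29 window held a TCF/LEF match and an HNF4 match close together, and a core site. That of Slc1a2 held a TCF/LEF match and a core site, that of Lect2 a TCF/LEF match, and that of Hsd17b13 an HNF4 match and a core site. The other leading pericentral genes with a window, Meg3, Cyp2c37, Slc13a3, Cyp2c67, Rdh9, Gstm2 and Cyp2c50, had no TCF/LEF match. No window was found for Lhpp or Rgn. RefSeq windows were matched for 124 of the 165 pericentral and 77 of the 94 periportal genes, 170 and 98 windows. CTTTGAT was in 12 of the 170 pericentral windows (7.06%) and 1 of the 98 periportal ones (1.02%), against 2.44% for the windows of genes at 20 CPM or more and 3.73% for all windows. The pericentral windows with it belonged to 11 genes, among them Acot1, Sult2a8 and Wwtr1; the periportal one was that of Upp2. CAAAGTC was in 8.24% of pericentral and 3.06% of periportal windows, against 4.11% for genes at 20 CPM or more; Cyp2c29, Cyp2c37, Cyp2c67 and Cyp2c68, related genes that can share promoter sequence, were among its pericentral carriers. TTAATNATT was in 1.18% and 1.02%, and AGGTCA in 17.6% and 23.5%, against 1.07% and 13.9%. A match is letters in this window only; among the score genes, the Glul, Oat, Cyp2e1, Cyp1a2, Cyp2f2 and Ass1 windows held no CTTTGAT, and that of the periportal gene Hal held 1.

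Gene lists describe what else went with the gradient, beside the backgrounds of 3.15% and 1.8% of genes called. Their members were chosen with earlier results of these data known, so the counts are a description and not an independent check. Of a list of pericentral hepatocyte genes known from earlier work on zonation, 28 of 30 reached 20 CPM, of which 26 were called pericentral and 0 periportal, with a median log2 ratio of 1.45 against 0.04 for all genes. Besides those named above, Gulo, of ascorbate synthesis, was at 525, 366, 266 and 190 CPM and Rhbg, an ammonia transporter, at 64.8, 37.2, 24.4 and 21.5 CPM. The exceptions were Car3, a carbonic anhydrase, at 0.53, and Cyp3a25, at 0.21. Of the periportal hepatocyte list 29 of 30 reached 20 CPM, with 19 called periportal, 0 pericentral and a median of -0.78. Its uncalled members included Pcx, pyruvate carboxylase, at -0.04, and G6pc, glucose-6-phosphatase, at -0.20, which were close to even across the section.

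Targets and feedback regulators of Wnt signalling were higher at the pericentral end. All 3 list members at 20 CPM or more were called: Tbx3, a transcription factor, at 42.3, 26.2, 20.7 and 12.5 CPM, Notum, a secreted Wnt inhibitor, at 44.6, 29.1, 24.8 and 15.2 CPM, and Rnf43, which removes Wnt receptors, at 20.2, 10.0, 9.45 and 8.40 CPM. All 3 reached 20 CPM in the pericentral but not in the periportal region, so the filter itself favoured pericentral calls and their count is no support. The sparser members were counted in few UMIs. Lgr5, the R-spondin receptor, had 54 UMIs in the pericentral and 5 in the periportal region; Axin2 had 74 and 19, and Sp5 had 53 and 7. Summed, the list was at 160, 91.0, 74.2 and 53.7 CPM, a log2 ratio of 1.58 (1.38 to 1.78).

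Nitrogen handling was divided between the ends. Of the ammonia and glutamine list 9 genes reached 20 CPM, with 3 called pericentral (Slc1a2, Slc13a3 and Rhbg) and 2 periportal (Gls2, and Got1, cytosolic aspartate aminotransferase, at -0.71). Glud1, glutamate dehydrogenase, was at 0.21 and Got2 near 0. Of 7 urea cycle genes, 4 were called periportal with none pericentral: Arg1, arginase, at -0.96, Asl at -0.92, Cps1 at -0.78 and Otc at -0.73. Cps1, which fixes ammonia, was at 1079, 1552, 1790 and 1853 CPM: 67.2% of its log2 change lay in the step into the pericentral region and 6.38% in the step at the periportal end. Cps1 thus differed little between the periportal and the lower middle region and most between the upper middle and the pericentral region. Nags, which makes the activator of Cps1, stood at 0.23, and the mitochondrial ornithine and aspartate carriers Slc25a15 and Slc25a13 at -0.25 and -0.08.

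Of 19 amino acid breakdown genes 6 were called periportal and 1 pericentral, with a median of -0.36. The histidine pathway genes Amdhd1 (-1.32), Uroc1 (-1.22) and Ftcd (-0.83) followed the score gene Hal, while the tyrosine breakdown genes Hpd (0.17) and Hgd (-0.01) were nearly even. Prodh, proline dehydrogenase, was the pericentral one at 0.76. Of 9 glucose production genes 2 were called periportal, among them Pck1, which commits carbon to gluconeogenesis, at 1308, 1588, 1893 and 2182 CPM (-0.74). None of 10 glycolysis genes was called, Ldha, lactate dehydrogenase, being at 559 and 468 CPM in the outer regions.

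Of the lipid lists, few members were called. Of 15 fatty acid synthesis genes 1 was called, Acly, ATP citrate lyase, at 45.7, 48.6, 73.7 and 85.4 CPM (-0.90), while Fasn was at -0.32 and Scd1 at -0.44. Of 21 fatty acid oxidation genes 19 lay above 0, but 1 was called: Acot1, an acyl-CoA thioesterase, at 141, 101, 72.3 and 55.5 CPM (1.34). The list's median was 0.21. Of 13 lipid droplet genes 2 were called pericentral, Fitm1 at 0.83 and Mogat1 at 0.74, while Plin2, the main droplet coat protein of hepatocytes, was at 838, 708, 687 and 656 CPM (0.35). Cidea, a droplet fusion protein under 20 CPM, had 62 UMIs in the pericentral and 12 in the periportal region. None of 14 cholesterol genes was called.

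Detoxification and bile acid genes were split within their families. Of 22 xenobiotic cytochromes at 20 CPM 10 were called pericentral and 0 periportal, but 9 lay below 0. Cyp2a5, which oxidises coumarin and nicotine, was at 2557, 1830, 1350 and 1016 CPM (1.33) and Cyp3a11 at 644, 409, 284 and 217 CPM (1.57), whereas Cyp2d9 (0.12), Cyp2d10 (-0.05) and Cyp3a13 (-0.39) were not called. Of 17 bile acid genes 5 were called pericentral: the uptake transporters Slco1b2 (1.21) and Slco1a1 (1.01) and the synthesis enzymes Cyp7a1 (1.02), Hsd3b7 (0.72) and Cyp27a1 (0.64). Cyp7a1, the rate-limiting enzyme of bile acid synthesis, was at 139, 115, 90.6 and 68.6 CPM. Cyp8b1, which directs synthesis towards cholic acid, was at 0.07, and the bile salt export pump Abcb11 at -0.16. Of 23 glutathione transferases and NRF2 targets 4 were called pericentral, among them Gstm2 and Gsta3 (0.76), and 1 periportal, Gsta1 (-0.66).

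Of 30 plasma protein genes 25 lay below 0 and 2 were called periportal, Serpina1e at -1.15 and Hpx at -0.59; Alb, albumin, was at -0.56 and Apoe at 0.01. Complement held a call on each side: C6 at 0.83 and C9, the last component of the membrane attack complex, at 219, 321, 355 and 394 CPM (-0.85). The major urinary proteins, pheromone carriers secreted by mouse liver, also held a call on each side, with 9 of 18 genes above and 9 below 0. Mup9 was at 9543, 8293, 6436 and 4916 CPM (0.96) and Mup21 at 654, 869, 1152 and 1538 CPM (-1.23), while 16 of the 18 measured members, Mup20 among them at -0.36, were not called. Mup genes are near-identical, so the division of reads among them is uncertain. Hamp, which encodes the iron hormone hepcidin and was listed as mid-lobular, was at 963, 1460, 1744 and 1961 CPM (-1.03) and highest at the periportal end.

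Several groups showed no call in either direction: 34 nuclear oxidative phosphorylation genes (median -0.11), 12 mitochondrially encoded genes (0.11), 16 unfolded protein response genes (-0.18), 15 interferon response genes (-0.01), 9 antigen presentation genes (-0.05) and 7 clock genes (-0.19). The hypoxia list had 1 periportal call of 6 genes, Ddit4 at -1.18, and Vegfa was at -0.09. Of 4903 genes, 13 (a background of 0.265%) were at least 1.2-fold higher in the middle regions than in the higher outer region; the largest excess at 50 CPM or more was that of Fam91a1, at 43.0, 52.5, 52.4 and 43.0 CPM, 1.22-fold.

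**Figure D3:**
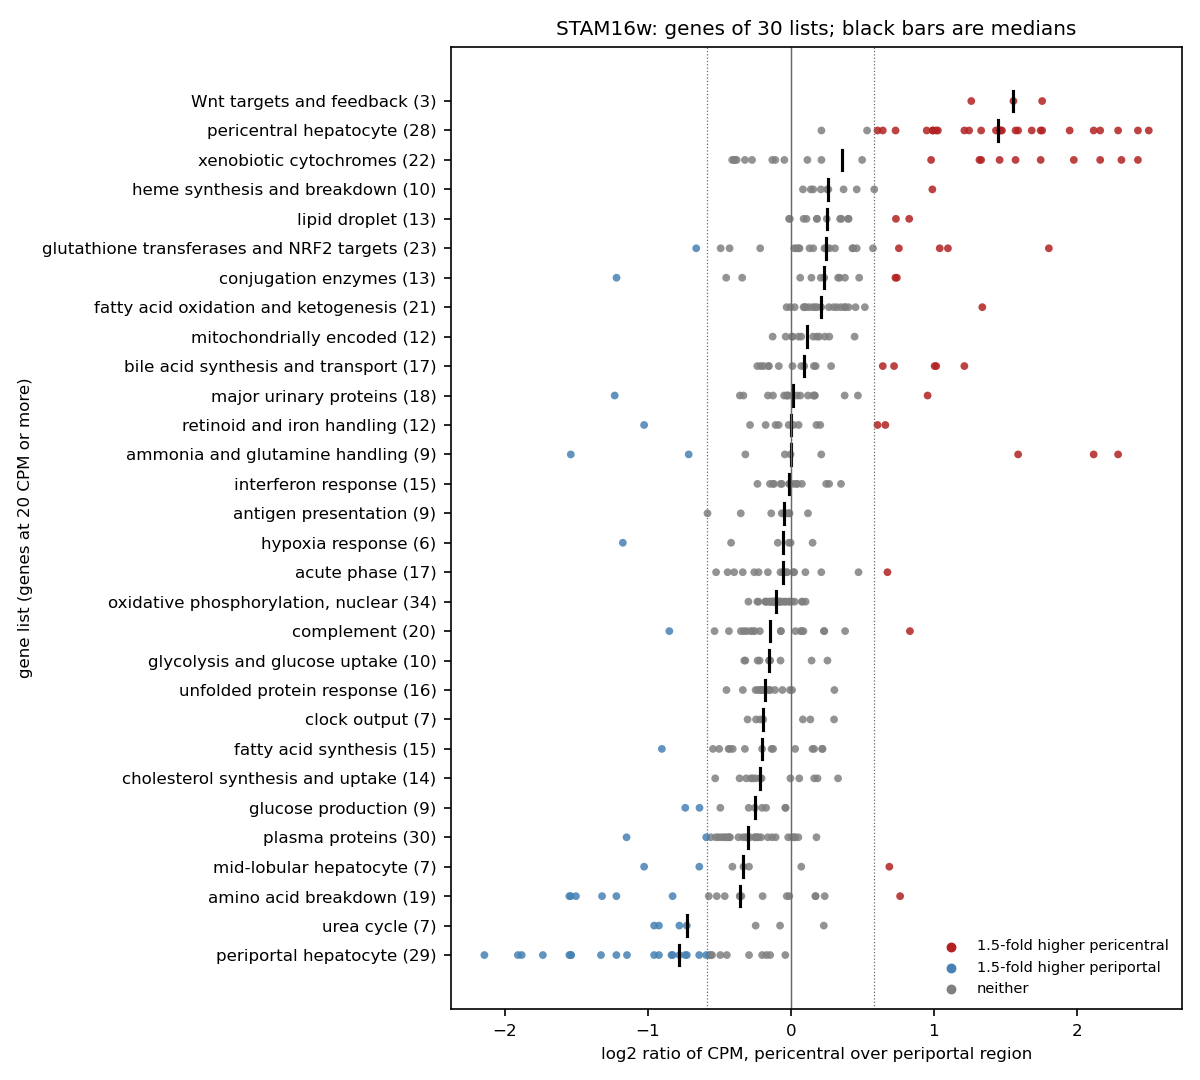
Log2 ratio of pericentral over periportal CPM for the genes of 30 lists in STAM16w, 1 point a gene at 20 CPM or more, with the list's median as a black bar and dotted lines at 1.5-fold. Median ratios run from 1.56 for Wnt targets to -0.78 for periportal hepatocyte genes. The Wnt median rests on 3 genes that reached 20 CPM in the pericentral but not the periportal region. The oxidative phosphorylation and interferon lists sit near 0 with no call.

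Markers of other cell types were measured in the same regions; in tissue spots, fewer cells of a type and less RNA per cell cannot be told apart. Endothelial genes of the central vein were sparse and higher at the pericentral end: Rspo3, the R-spondin ligand of Lgr5, had 36 UMIs there and 4 in the periportal region, Wnt9b 22 and 3, and Wnt2 41 and 14. The 9 genes of that list summed to 124 and 60.0 CPM, a log2 ratio of 1.05, with Fabp4, a fatty acid carrier also found in fatty hepatocytes, contributing 77.7 and 42.0 CPM. Bile duct markers stood at the other end, at very low levels. Epcam had 2 UMIs in the pericentral and 25 in the periportal region, Krt7 3 and 17, and Sox9 3 and 17. Smooth muscle genes, known from the vessels of portal tracts, were also higher there: Acta2 had 12 and 45 UMIs, Myh11 6 and 34, and Tagln 16 and 50. Both ends thus held traces of the vessels and ducts that define them anatomically, at levels that allow no more than these counts.

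The cholangiocyte list summed to 128 and 302 CPM, a log2 ratio of -1.24, of which Spp1 contributed 29.3 and 156 CPM; its 12 genes had 2 at 20 CPM and 2 at 0 in an outer region. The part of duct cells in the Spp1 difference was not tested. Sinusoidal endothelial markers summed to 487 and 422 CPM and Kupffer cell markers to 982 and 900 CPM, with none of their 10 genes each called. Stellate cell markers summed to 466 and 383 CPM, with Reln alone called, at 0.63. The fibroblast list summed to 155 and 214 CPM, and its collagens were close to even, Col1a1 at 20.9 and 27.0 CPM and Col3a1 at 48.1 and 50.2 CPM. T and NK cell markers summed to 10.8 and 10.0 CPM, and neutrophil markers to 15.8 and 13.3 CPM. The immunoglobulin genes Ighm, at 27.0, 8.29, 6.70 and 9.42 CPM, and Igkc, at 32.0, 12.5, 12.8 and 14.5 CPM, were highest in the pericentral region and close together in the other three.

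A set of marked spots, called the small patch here, was also left out. The mark was 3 or more UMIs of Mtmr11, Fndc10, Fmr1nb and Nkd1 together, chosen after seeing the data. It held in 16 spots, 13 of them pericentral and 2 periportal. Whether these spots adjoin was not measured, and Nkd1 was itself higher at the pericentral end (1.45). With the spots adjacent to them 59 spots were left out, 40 pericentral and 4 periportal. Without them 145 genes were called pericentral and 101 periportal, of which 141 and 90 were among the 165 and 94. Nupr1, a stress-induced chromatin protein, moved most among the called list genes: it was at 48.2 and 13.5 CPM with the patch (1.83) and at 24.22 and 12.03 CPM without it (1.01). The Wnt targets Tbx3 and Notum kept their side.

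The same ranking was run in the other sections, each on its own spots, to see where STAM16w differed; with 1 section each, these differences were not tested. In STAM20w 9.32% of genes were called pericentral and 5.5% periportal; 81 of the 165 STAM16w pericentral genes (49.1%) and 57 of the 94 periportal genes (60.6%) were called on the same side there. Of the 165 and 94 genes, 144 and 80 reached 20 CPM in STAM20w, and 133 and 72 of those had the same sign. In DEN22w, with backgrounds of 7.98% and 1.68%, the counts were 82 (49.7%) and 35 (37.2%); 125 and 86 reached 20 CPM, and 120 and 70 had the same sign. In DEN30w, with backgrounds of 7.75% and 1.58%, they were 72 (43.6%) and 37 (39.4%); 130 and 86 reached 20 CPM, and 125 and 68 had the same sign. In all 4 sections together 42 genes were called pericentral, among them Meg3, Lhpp, Lect2, Gstm2, Tbx3, Notum and Cyp7a1, and 25 periportal, among them Aldh1b1, Etnppl, Gls2, Gldc, Hamp, Arg1 and Pck1. Conversely, 46 pericentral and 30 periportal genes were called in STAM16w and in no other section, which includes genes that fell short of 20 CPM or of 1.5-fold there.

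Some leading genes of STAM16w had lower levels or smaller ratios in the DEN sections. Slc1a2 was at 371 and 75.8 CPM in the pericentral and periportal regions of STAM16w and at 249 and 37.0 CPM in STAM20w. In DEN22w it was at 0.438 and 0.139 CPM, and in DEN30w at 5.93 and 2.22 CPM. Glul likewise was at 1094 and 265 CPM in STAM16w but 121 and 28.4 CPM in DEN22w; as a score gene it was used to rank the spots of both, so its ratios are not compared. Hsd17b13 had log2 ratios of -1.88 in STAM16w and -1.97 in STAM20w, against -0.48 in DEN22w and -0.74 in DEN30w. Spp1 had -2.41, -0.88, -0.55 and 0.66 in STAM16w, STAM20w, DEN22w and DEN30w.

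The other cell types lay differently along the score as well. Gpnmb, a gene of lipid-associated macrophages, was at 3.42 and 3.89 CPM in the outer regions of STAM16w but at 49.6 and 12.1 CPM in STAM20w, 183 and 46.1 CPM in DEN22w and 88.4 and 29.1 CPM in DEN30w. Col1a1, fibrillar collagen, was near even in STAM16w, at -0.37, and pericentral in DEN22w and DEN30w, at 1.88 and 1.68. Cpe, carboxypeptidase E, was at 1.62 and 1.64 CPM in STAM16w and at 60.8 and 2.64 CPM in STAM20w. The high-score region of the other sections therefore held more Gpnmb signal than that of STAM16w. In STAM20w it also held more Cpe signal. In the high-score region, lipid-associated and infiltrating macrophage markers summed to 554 CPM in STAM16w and 1392, 1461 and 1779 CPM in STAM20w, DEN22w and DEN30w. Kupffer cell markers summed to 982 CPM in STAM16w and, in the same order, to 1494, 912 and 1313 CPM. Fibroblast markers summed to 155 CPM in STAM16w and to 197, 349 and 589 CPM. The periportal sums differed between sections too. In the same order from STAM16w, they were 612, 1099, 697 and 927 CPM for lipid-associated and infiltrating macrophages. Kupffer cell markers were at 900, 1182, 549 and 749 CPM there, and fibroblast markers at 214, 173, 164 and 280 CPM. The first list also holds Spp1, at 29.3 and 156 CPM in the outer regions of STAM16w. The part of these signals in the differing counts was not tested.

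**Figure D4:**
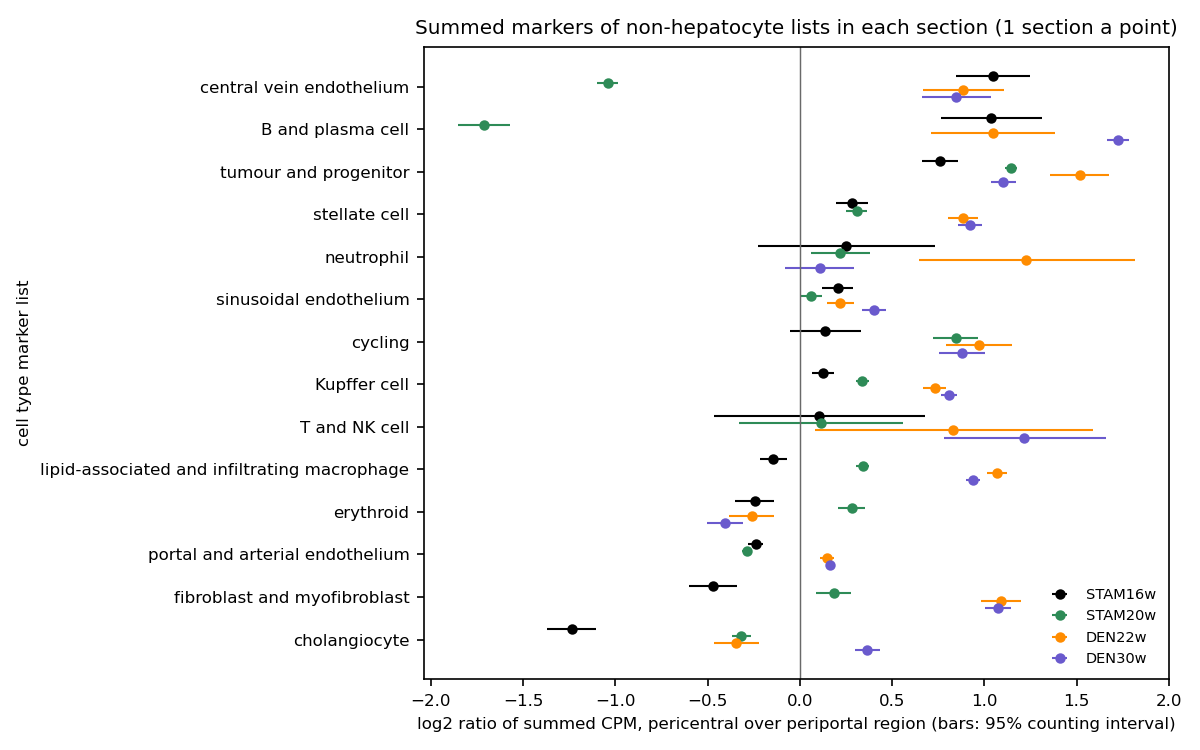
Log2 ratio of summed CPM, pericentral over periportal region, for 14 cell type marker lists in each of the 4 sections; bars are 95% binomial intervals for counting error. The fibroblast list lies at -0.47 in STAM16w and at 1.09 and 1.07 in DEN22w and DEN30w, and the cholangiocyte list is lowest in STAM16w, at -1.24.

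Of the genes called in STAM16w, 6 had the opposite sign in all 3 other sections. Mup9 was at 9543 and 4916 CPM in STAM16w (0.96) and at 79.8 and 108 CPM in STAM20w, 133 and 176 CPM in DEN22w and 19.4 and 33.7 CPM in DEN30w, with log2 ratios of -0.44, -0.40 and -0.80. Mup9 thus stood at a far higher level in STAM16w as well as on the other side. The summed major urinary protein list, which includes Mup9, also stood at a far higher level in STAM16w. It was close to even there, with 9 of 18 genes above 0 and 9 below. In the pericentral region it was at 120064 CPM in STAM16w and at 4291, 11009 and 3618 CPM in STAM20w, DEN22w and DEN30w. Its summed log2 ratio was 0.08 in STAM16w and -0.14, -0.58 and -0.51 in the others. Gsta1 had -0.66 in STAM16w against 0.89, 0.62 and 0.85, and S100a6, a calcium-binding protein, -0.73 against 0.96, 0.39 and 0.80. Mfge8 and Gda, 2 of the others, lay within 0.05 of 0 in STAM20w.

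**Figure D5:**
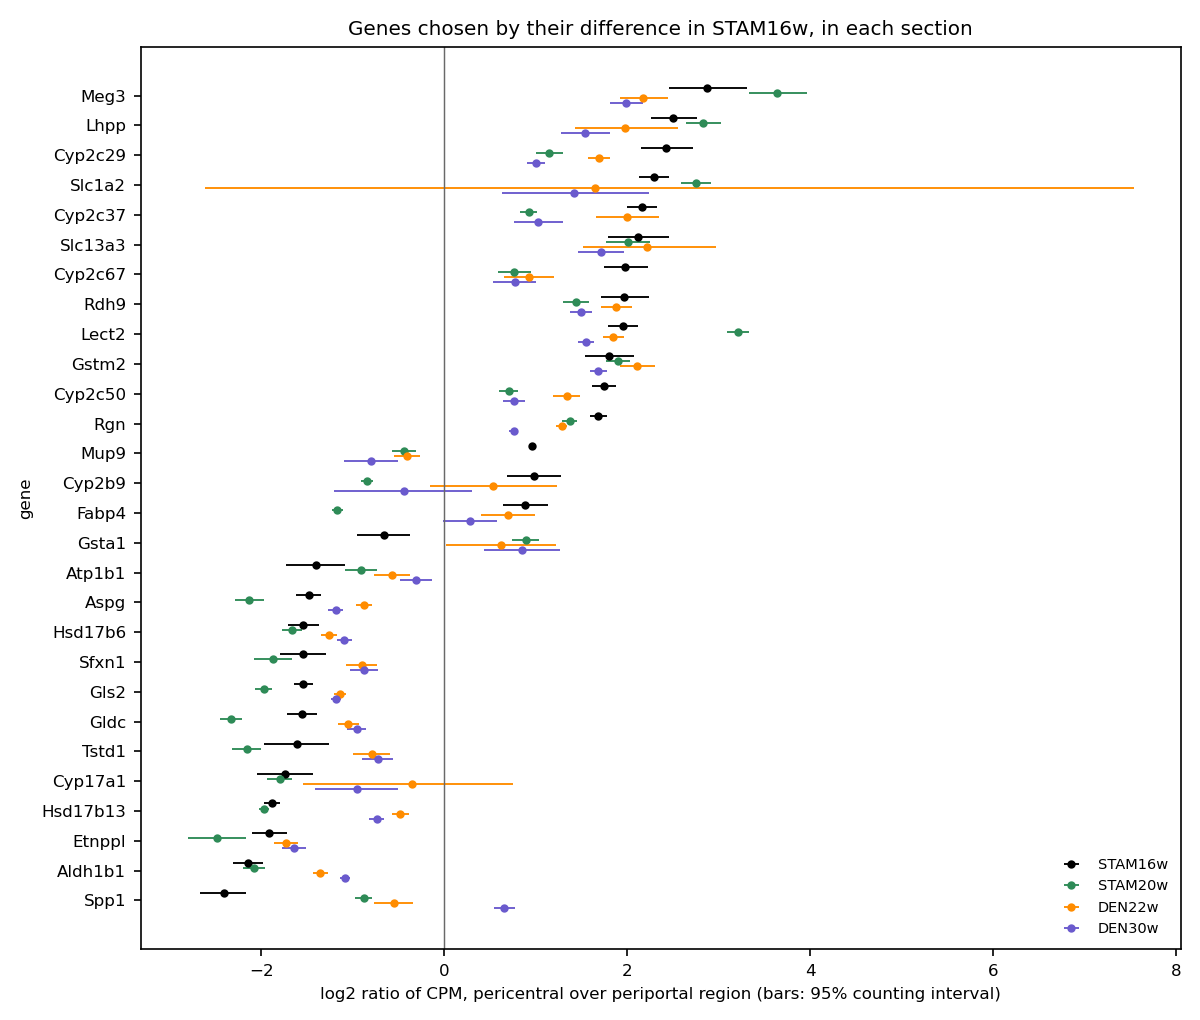
Log2 ratio of pericentral over periportal CPM with 95% binomial intervals for the 24 leading genes of STAM16w and for Mup9, Cyp2b9, Fabp4 and Gsta1 in each of the 4 sections. The leading genes were chosen in STAM16w; the wide interval of Slc1a2 in DEN22w reflects 0.438 and 0.139 CPM.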

How the data were processed

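The authors deposited 1 matrix of UMI counts per gene and spot for each section, raw counts of 32285 genes per the file headers, with array positions. Space Ranger 1.3.1, STAR and build mm10 are named in the submitters' processing notes; annotation and settings are not given in the sources used here. Spots of at least 500 UMIs and 250 genes were kept: 2080 of 2082 in STAM16w, with 20700642 UMIs and a median of 9711.5 per spot, and medians of 7302.5 to 12761 in the other sections. Spots are not cells: tissue over 1 spot may belong to more than 1 cell type, and no doublet caller was run.

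Counts were summed over each region and given as CPM with exact Poisson 95% intervals; log2 ratios have exact binomial (Clopper-Pearson) 95% intervals. Both cover counting error only. Calls needed 20 CPM in the higher region and 1.5-fold. Named genes were the 12 of highest and 12 of lowest ratio at 50 CPM or more, 6 of largest middle excess, members of gene lists, those at 1.5-fold first, and up to 6 genes on another side in every other section. The members and lists were chosen with earlier results of these data known. The ratio, its interval and the 1.5-fold cut were tested on Poisson counts simulated for the region totals. Spots, their ranking and their summing were not simulated.

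Promoter windows came from RefSeq (GRCm38.p6), searched on both strands for 4 motifs. Alternatives changed the share of spots at each end, depth, filters, score genes, pseudocount and scaling, and left out edge spots or a small patch. Python 3.11.15, numpy 2.4.6, scipy 1.17.1, pandas 2.3.3 and matplotlib 3.10.9 were used. Of the kept barcodes, which mark array positions, 1133 occurred in all 4 sections. Tissue images were not used here, and some genes are not reported here.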

Additional observations from a re-analysis of the deposited data

Results flagged for a closer look

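At 50 CPM or more, 7 genes called in STAM16w lay on the other side, by counting intervals, in STAM20w or in both DEN sections; with 1 section a group the difference was not tested. The log2 ratio of pericentral over periportal CPM of Fabp4 was 0.89 in STAM16w and -1.17 in STAM20w, where its level was 333 and 748 CPM against 77.7 and 42.0 CPM; in DEN22w and DEN30w it was 0.70 and 0.28. That of Cyp2b9, a cytochrome P450 known to rise in fatty liver, was 0.98 and -0.84, at 55.4 and 28.1 CPM in STAM16w and 298 and 533 CPM in STAM20w; in DEN22w and DEN30w it was 0.54 and -0.44, with intervals that held 0. Cdo1, cysteine dioxygenase, had 0.66 and -0.34, with 0.42 and 0.26 in the DEN sections, and Sult2a8, a sulfotransferase, 0.73 and -0.15, with 0.19 and 0.15. Gm43305, an unnamed locus, had -0.64 and 0.57, with -0.58 in DEN22w and 0.42 in DEN30w. Mup9 (0.96) and Gsta1 (-0.66) lay on the other side in all 3 other sections. Gsta1 was under 20 CPM in DEN22w and DEN30w, and its DEN22w interval of 0.02 to 1.22 came close to 0.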

How the results depend on the processing

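The numbers of pericentral and periportal genes (165 and 94) became 395 and 251 with 208 spots at each end, 575 and 342 at 5 CPM, 53 and 39 at 100 CPM, and 63 and 36 at 2-fold. The middle count (13) became 31, 170 and 0 with 208 spots, at 5 CPM and at 100 CPM, 8 with Cyp2f2 left out of the score and 34 with the mean of spots. Contacts within the pericentral region (53.1%) became 59.3% with 693 spots at each end, 35.4% with 208, 46.0% with the score thinned to 2000 UMIs, 50.6% from pericentral score genes only, 47.3% from periportal score genes only and 69.8% from adjacent spots. For the periportal region (52.9%) they became 60.0%, 34.5% and 44.1% with 693 spots, 208 spots and thinning, 46.6% from periportal score genes only, 50.3% without Cyp2e1, 50.5% without Cyp2f2 and 68.5% from adjacent spots. Genes called on the same side in STAM20w (138) became 279 with 208 spots, 309 at 5 CPM, 59 at 100 CPM and 63 at 2-fold; in DEN22w (117) 200, 271, 51 and 37; and in DEN30w (109) 197, 263, 49 and 33. Fewer spots, genes or calls follow from how these settings are built. For the 24 named genes, 400 of 480 values lay inside the counting interval of the value reported, 80 outside it on the same side and 0 on the other side. The 24 genes were chosen for their ratio in these same spots, and the alternatives reuse the same counts. Their sides were therefore close to fixed in advance. Leaving out the small patch by the planned mark, 5 UMIs without Nkd1, marked 1 spot, left out 7 and gave 162 and 97 genes; the looser mark of 3 UMIs was chosen after seeing the data. No paired analysis was possible because each group has 1 section. Only 1 section was measured: no value shows how far a second section of this kind would differ, and sparse markers rest on a few UMIs.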

Other observations

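Of the called genes, 56 of 165 pericentral and 35 of 94 periportal belonged to a gene list, and those outside the lists, chosen here after their values were seen, included further transport and steroid genes. Akr1c6, an aldo-keto reductase that acts on steroids, was at 1035, 789, 564 and 386 CPM from the pericentral to the periportal region, a log2 ratio of 1.42. Cldn2, a claudin of leaky tight junctions, was at 85.1, 59.4, 49.6 and 36.1 CPM (1.24). Nr1i3, the nuclear receptor CAR that controls drug metabolism, was at 240, 216, 164 and 141 CPM (0.77), and Aqp9, the glycerol channel, at 310, 253, 221 and 177 CPM (0.81).

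On the periportal side Hsd11b1, which regenerates active glucocorticoid, was at 225, 293, 359 and 415 CPM (-0.89). Mfsd2a, a lysophospholipid transporter, was at 45.0, 65.4, 83.9 and 103 CPM (-1.20), and Mt1, a metallothionein, at 1907, 2408, 2815 and 2926 CPM (-0.62).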
